A study of Mus musculus with 16 samples.

Results

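Phenobarbital was compared with no phenobarbital in non-tumour mouse liver, over all 18193 genes that the arrays name by a single symbol and that also make up the gene table of the whole series. Of the series' 16 Affymetrix arrays, 6 enter the comparison: 3 control livers labelled as belonging to the Ctnnb1-mutated tumours, all under phenobarbital (arrays 4, 5 and 6), and 3 control livers labelled as belonging to the Ha-ras-mutated tumours, all on drinking water alone (arrays 1, 2 and 3). The other arrays are 7 Ctnnb1-mutated tumours under phenobarbital and 3 Ha-ras-mutated tumours without it, and they serve here to estimate the spread of each gene and for 1 later comparison. The question is which transcripts of the liver around the tumours differ with the drug.

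Every animal was a male of the strain C3H/HeJ, with no transgene named. The design text gives every animal 1 injection of DEN (diethylnitrosamine, a liver carcinogen) of 10 or 90 µg per gram, given at an age of 2 or 6 weeks, so the untreated controls are carcinogen-exposed livers too. Which dose and age belonged to which group is not stated in the labels. The sample labels give 27 weeks of phenobarbital in the drinking water, or of water alone, by mouth and freely taken. The design text instead gives a diet with 0.05% phenobarbital for 28 to 36 weeks after a gap of 2 weeks, and a further protocol text gives 0.05% in drinking water for 28 days. All arrays of a treatment come from livers that grew tumours of 1 mutation type, so the drug and the history of the liver cannot be told apart. The labels do not say whether the samples came from separate animals, and the p-values measure only the spread between these samples.

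Phenobarbital is a barbiturate that activates CAR (constitutive androstane receptor, the product of Nr1i3), largely by releasing it from the cytoplasm of hepatocytes. In the nucleus CAR pairs with a retinoid X receptor and switches on genes that oxidise, conjugate and export foreign compounds, with Cyp2b10 as the usual readout in mice. The drug also enlarges hepatocytes, expands their smooth endoplasmic reticulum, and on long exposure promotes liver tumours whose cells carry activated beta-catenin.

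The values are log2 intensities after RMA (a background correction, a normalization between arrays and a summary of each probe set), and a difference of 1 is a 2-fold change. A gene was called when its limma p, adjusted after Benjamini and Hochberg across the whole gene table, was under 0.05, and "rose" and "fell" are used for called genes alone. Array values are listed in the order 4, 5, 6 for phenobarbital and 1, 2, 3 for untreated liver, and a fold change is followed by its standard error from the fit. Array medians lay between 5.03 and 5.10. Phenobarbital control 6 stood apart: the Gapdh control probe set at the 3′ end exceeded that at the 5′ end, a measure of RNA integrity, by 2.70 there and by -0.15 to 0.32 on the other 15 arrays, and for Actb this gap was 3.87 against 1.38 to 1.96. Its correlation with the other 5 control arrays was 0.973 to 0.979, while those 5 correlated at 0.986 to 0.993 among themselves. No pair of arrays held identical values. For the called genes the values without that array are therefore given too.

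Of 18193 genes, 39 were called (0.214%), 24 higher (0.132%) and 15 lower (0.0824%) under phenobarbital. The change was at least 2-fold for 26 of them, 17 higher and 9 lower, and the arrays of the 2 groups did not overlap in any of the 39. Over all genes, the 3 phenobarbital arrays lay above all 3 untreated arrays for 9.4% and below for 9.44%, so a gene whose arrays do not overlap is common here. A further 122 genes had non-overlapping arrays and at least a 2-fold difference without being called, and 2480 genes had an unadjusted p under 0.05. An exact permutation test of 3 against 3 arrays cannot go below a two-sided p of 0.1, so the fit across all genes is the only test used. The median log2 fold change of all genes was -0.02.

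The number of calls moved with single arrays. It was 3 without phenobarbital control 4, 68 without control 5, 9 without control 6, and 8, 15 and 6 without untreated controls 1, 2 and 3. The 9 called without phenobarbital control 6 (0.0495%) were 7 higher (0.0385%) and 2 lower (0.011%), and 7 of the 9 were among the 39: Cyp2b10, Cyp2c55, Mtmr11, Usp6nl and Gtf2e1, which rose, and Hhip and Inhbe, which fell. All 39 genes kept their direction without that array, with adjusted p up to 0.117. When limma estimated a weight for each array, control 6 received 0.216 and the other 5 controls 1.13 to 1.67, and 242 genes were called (1.33%), 136 higher (0.748%) and 106 lower (0.583%), among them all 39. No other alternative called as many genes. The genes given below as called with array weights but not in the main fit were not called without phenobarbital control 6 either. Cyp2b10 and Cyp2c55 were the 2 genes called in all 6 refits that left out 1 control array, Mtmr11 was called in 4 of them, and 9 of the 39 in 0.

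**Figure D1:**
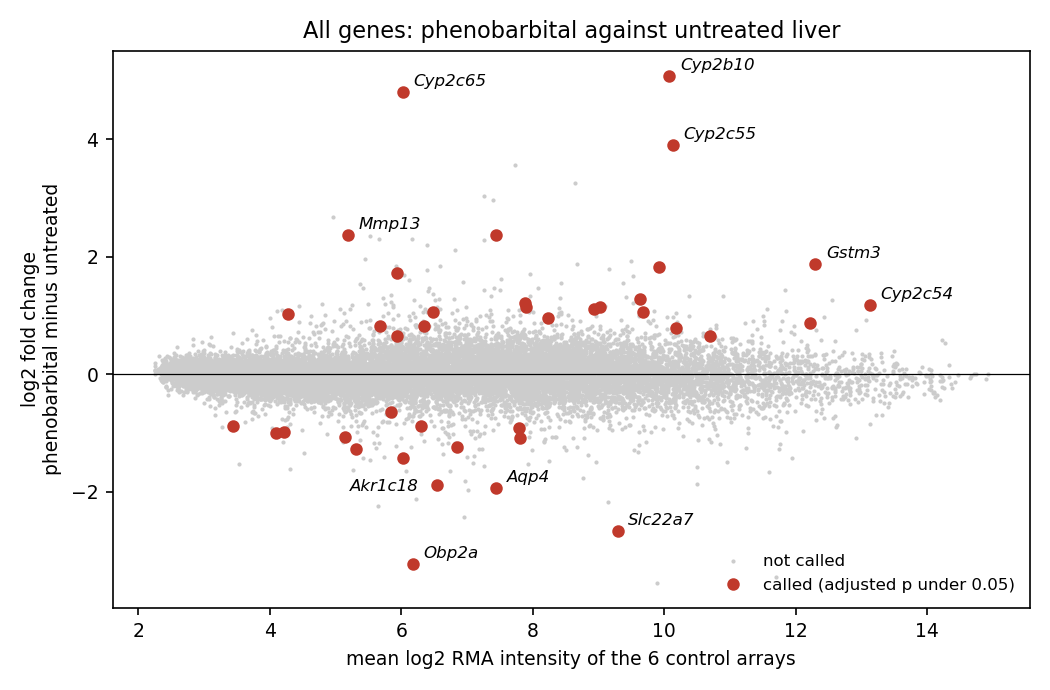
Log2 fold change of phenobarbital minus untreated control liver (vertical axis) against the mean log2 RMA intensity of the 6 control arrays (horizontal axis) for all 18193 genes, with the 39 called genes in red. Cyp2b10, Cyp2c65 and Cyp2c55 lie at the top, between 3.90 and 5.08, and most genes lie close to 0.

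Phenobarbital-inducible cytochromes P450, the haem enzymes that put oxygen on drugs and steroids, held the largest rises. Of 16 measured genes of this list 4 rose and 0 fell (0.132% and 0.0824% of all genes), with a median log2 fold change of 0.60. All 3 phenobarbital arrays lay above all 3 untreated arrays for 11 of the 16, and below for 0. Over all genes these shares were 9.4% and 9.44%. The probe sets of the Cyp2 family, like those of the glutathione transferases, share sequence between members, so the member measured is uncertain.

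Cyp2b10, the standard readout of CAR, had log2 values of 12.41, 12.71 and 12.73 under phenobarbital and 8.33, 7.48 and 6.82 without it. The phenobarbital arrays lay close together, the untreated arrays spread more widely, and the groups did not overlap. The rise was 5.08 ± 0.51, or 33.8-fold (limma adjusted p = 0.000352), and leaving out phenobarbital control 6 left it at 5.02 (adjusted p = 0.00492). Its other 2 probe sets rose by 5.22 and 5.31.

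Cyp2c55, a P450 that hydroxylates arachidonic acid, had values of 11.77, 12.37 and 12.11 against 8.63, 8.29 and 7.64. Again the groups did not overlap, and untreated control 3 was the lowest array. It rose by 3.90 ± 0.36, or 14.9-fold (limma adjusted p = 0.000241), and by 3.89 without phenobarbital control 6 (adjusted p = 0.00338).

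Cyp2c65, a 2C enzyme best known from the gut, stood at 8.04, 8.64 and 8.60 against 3.55, 3.88 and 3.45. The untreated arrays lay near the low end of the scale, where values include background. It rose by 4.80 ± 0.85 (limma adjusted p = 0.0315), a call that was lost in each of the 6 refits without 1 control array. Without control 6 the difference was 4.71 (adjusted p = 0.0979). Its SD was 0.34 under phenobarbital, 0.23 in untreated liver and 1.65 in the Ctnnb1 tumours, which share the spread of the fit. With only the 6 control arrays it was called (limma adjusted p = 0.000348). Cyp2c54 was bright in both groups, at 13.49, 14.04 and 13.64 against 12.49, 12.55 and 12.60. It rose by 1.17 ± 0.21, or 2.26-fold (limma adjusted p = 0.0328), and was also lost in each refit without 1 control array (1.21 without control 6).

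To show what lies in front of the 3 most induced P450 genes, the 250 bases before their annotated starts are printed from RefSeq, build GRCm38.p6, 5′ to 3′ on the strand of the gene. The windows are Cyp2b10 at chr7:25897408-25897657 on the + strand, Cyp2c55 at chr19:39006769-39007018 on the + strand and Cyp2c65 at chr19:39060756-39061005 on the + strand. Capitals mark TATAA, a core of the TATA box, on either strand, with overlapping matches run together, and would also mark the nuclear receptor half-sites AGGTCA and AGTTCA on either strand.
Cyp2b10: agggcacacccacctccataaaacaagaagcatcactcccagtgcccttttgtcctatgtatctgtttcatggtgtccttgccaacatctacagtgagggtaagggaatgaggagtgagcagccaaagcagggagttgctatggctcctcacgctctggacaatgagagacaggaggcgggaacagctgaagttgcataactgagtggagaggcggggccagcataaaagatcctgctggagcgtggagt
Cyp2c55: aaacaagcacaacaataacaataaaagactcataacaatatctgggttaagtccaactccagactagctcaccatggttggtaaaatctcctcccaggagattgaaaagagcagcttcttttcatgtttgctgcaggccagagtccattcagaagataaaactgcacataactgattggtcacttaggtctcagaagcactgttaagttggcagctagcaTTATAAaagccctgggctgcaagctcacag
Cyp2c65: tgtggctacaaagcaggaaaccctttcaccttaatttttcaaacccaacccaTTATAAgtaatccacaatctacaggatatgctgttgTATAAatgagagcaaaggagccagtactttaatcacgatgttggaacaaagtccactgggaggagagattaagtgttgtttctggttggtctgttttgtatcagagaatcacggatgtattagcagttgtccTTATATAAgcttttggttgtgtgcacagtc
Counting each strand, TATAA was found 0 times before Cyp2b10, 2 times before Cyp2c55 and 5 times before Cyp2c65. A single stretch such as TTATAA matches on both strands and counts 2 times, so these are not separate sites. The match nearest to the start lay at 29 bases for Cyp2c55 and 27 bases for Cyp2c65. Neither half-site was found in these windows, nor in those of Gstm3, Gstm4 and Ugdh, which makes 6 genes matched in the table of 7 looked up. Of all 32851 promoter windows of that length, 22.78% held TATAA, 14.02% AGGTCA, 11.84% AGTTCA and 24.16% either half-site. The search covers these letters in these windows alone. The known phenobarbital-responsive module of Cyp2b10 lies further upstream.

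Most other members of the P450 list were higher without passing. Cyp2b9 read 9.02, 11.78 and 10.05 against 7.76, 6.18 and 7.12, a difference of 3.26 ± 0.76 (adjusted p = 0.0861), and Cyp2b13 read 8.58, 10.41 and 9.56 against 6.26, 5.58 and 6.02, a difference of 3.56 ± 0.91 (adjusted p = 0.113). In both genes phenobarbital control 5 was the highest array and the groups did not overlap. Both are better known as female-biased genes of the mouse liver. Cyp2c37 differed by 1.26 ± 0.32 (adjusted p = 0.112), Cyp2c29 by 0.59 and Cyp3a11, the main target of the related receptor PXR, by 0.54. The last 2 sat near the top of the scale already in untreated liver, at 13.93 and 14.01 on average. Cyp2c38 and Cyp2c39 overlapped between groups, and control 4 was their lowest array. Cyp2c39 read 6.90, 10.61 and 9.27 against 8.82, 8.11 and 9.10.

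**Figure D2:**
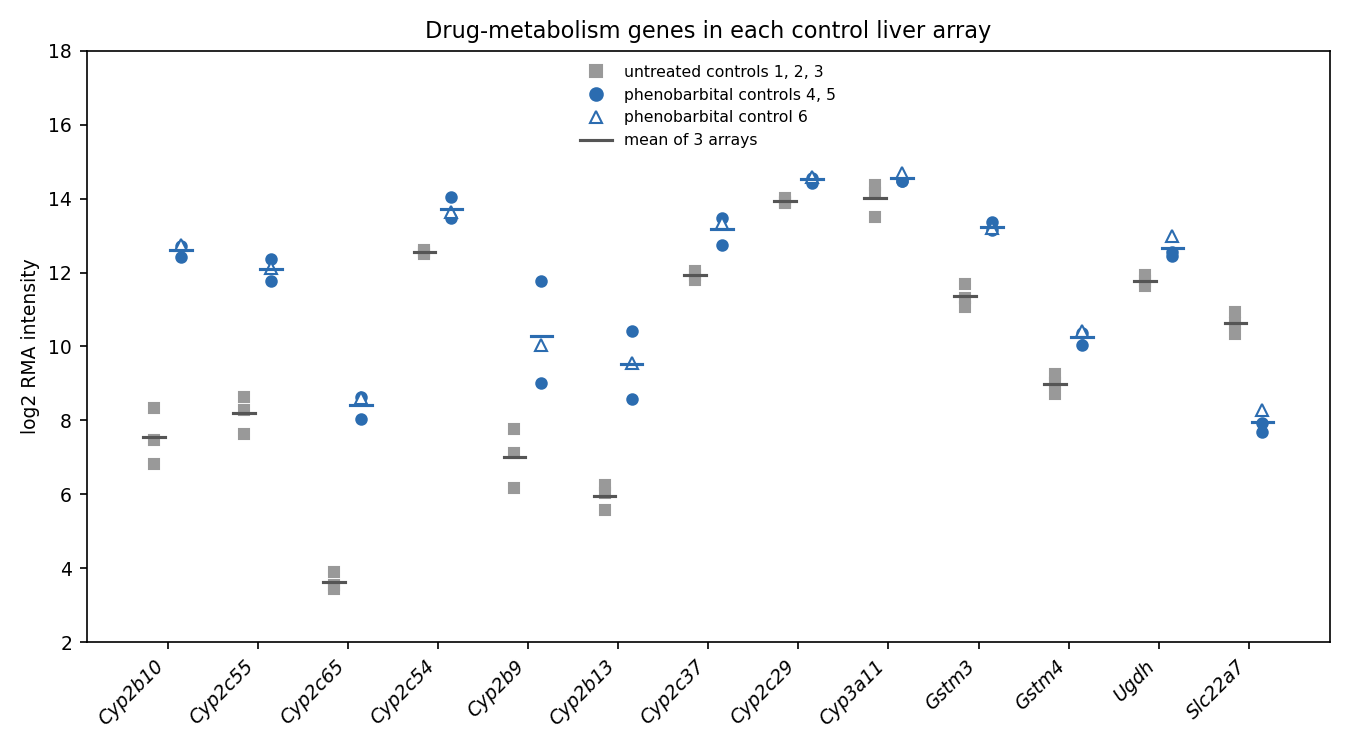
Log2 RMA intensity (vertical axis) of 13 genes of drug metabolism in each of the 6 control arrays: untreated livers as grey squares, phenobarbital controls 4 and 5 as filled circles, control 6 as an open triangle, and the mean of each 3 arrays as a bar. The genes were picked by hand, and the groups are apart for every gene shown. Groups overlap for 5 of 16 inducible P450s, 14 of 24 glutathione genes, 11 of 21 glucuronidation and sulfation genes and 19 of 22 carriers. Over all genes, the groups were apart for 18.8% and overlapped for the rest. Slc22a7 is the 1 gene shown that is lower under phenobarbital, and Akr1c18, which also fell, is not shown.

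Among the 35 other P450s of drugs and steroids 0 passed, with a median of -0.13. Cyp1a1, the classical target of the dioxin receptor, read 10.22 in phenobarbital control 6 and 5.21 and 5.26 in controls 4 and 5, while the untreated arrays lay between 5.03 and 5.52. Its mean difference of 1.70 thus came from 1 array and was 0.04 without it. Cyp1a2, a P450 of caffeine and arylamines, was also highest in that array, at 13.93 against 12.87 and 13.10.

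P450s need electrons and haem. Of 18 measured genes of electron supply and haem synthesis 0 passed, with a median of 0.08. Alas1, the first enzyme of haem synthesis, read 9.84, 11.45 and 12.36 against 12.47, 8.41 and 12.56, so that untreated control 2 was the lowest of all 6. Cpox, a later enzyme of the pathway, was lower in all 3 phenobarbital arrays, at 7.02, 7.62 and 7.78 against 8.36, 8.40 and 8.60. Its difference was -0.98 ± 0.22 (adjusted p = 0.0705), and with array weights it was called (adjusted p = 0.019). Por, the P450 reductase, is not analysed here.

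Conjugating enzymes showed a few rises. Of 24 genes of glutathione transfer and supply 2 rose and 0 fell (0.132% and 0.0824% of all genes), with a median of 0.22. Arrays were all above for 8 (9.4% of all genes) and all below for 2 (9.44% of all genes). Gstm3, a mu-class glutathione transferase, read 13.37, 13.15 and 13.21 against 11.69, 11.08 and 11.32. Its groups did not overlap, and it rose by 1.88 ± 0.33, or 3.68-fold (limma adjusted p = 0.0315; 1.90 and adjusted p = 0.0921 without control 6). Gstm4, of the same class, read 10.37, 10.03 and 10.41 against 9.26, 9.02 and 8.71 and rose by 1.27 ± 0.23 (limma adjusted p = 0.0315; 1.20 and adjusted p = 0.0979 without control 6). Of the related Gstm1 and Gstm2 the arrays did not overlap either, with differences of 0.92 and 0.98 (adjusted p = 0.118 and 0.168). Gstt3, a theta-class enzyme, differed by 1.31 (adjusted p = 0.14). At the low end stood Gstz1, a zeta-class enzyme of tyrosine breakdown, at -0.80 (-0.42 without control 6).

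Of 21 glucuronosyltransferases, sulfotransferases and their supply genes 1 rose and 0 fell (0.132% and 0.0824% of all genes), with a median of 0.02. All phenobarbital arrays lay above for 6 (9.4% of all genes) and below for 4 (9.44% of all genes). The riser was Ugdh, which makes the UDP-glucuronic acid that glucuronosyltransferases use. It read 12.44, 12.55 and 12.99 against 11.93, 11.78 and 11.63, with control 6 the highest array and no overlap, and rose by 0.88 ± 0.15, or 1.84-fold (limma adjusted p = 0.0315; 0.72 and adjusted p = 0.0921 without control 6). Ugdh is also the 1 called gene among 19 targets of NRF2, the sensor of electrophiles, whose median was 0.17 (0.214% of all genes were called). The sulfotransferases spread widely between samples: Sult3a1 read 3.80, 9.57 and 5.56 under phenobarbital and 4.05, 3.47 and 3.37 without it, and Sult1e1, which sulfates oestrogens, 4.84, 7.11 and 8.14 against 4.65, 4.34 and 4.06. Sult3a1 overlapped between groups, Sult1e1 did not, and neither passed (adjusted p = 0.405 and 0.391). Sult1c2 differed by 1.56 ± 0.52 (adjusted p = 0.213).

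Of 36 hydrolases, aldehyde and carbonyl enzymes 0 rose and 1 fell (0.132% and 0.0824% of all genes), and the median was 0.00. All phenobarbital arrays lay above for 2 (9.4% of all genes) and below for 4 (9.44% of all genes). The gene that fell was Akr1c18, a hydroxysteroid dehydrogenase that inactivates progesterone. It read 5.31, 5.50 and 6.01 against 7.39, 7.13 and 7.95. Every phenobarbital array lay below every untreated array, and it fell by 1.88 ± 0.33 on the log2 scale (limma adjusted p = 0.0315). Without control 6 the difference was -2.09 (adjusted p = 0.0804). Ces2a, a carboxylesterase, was higher in all 3 arrays by 0.90 (adjusted p = 0.192), and Ephx1, the microsomal epoxide hydrolase, overlapped between groups with a difference of 0.21.

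Among 22 carriers of drugs and bile salts 0 rose and 1 fell (0.132% and 0.0824% of all genes), with a median of -0.06. All phenobarbital arrays lay above for 2 (9.4% of all genes) and below for 1 (9.44% of all genes). Slc22a7, the organic anion transporter OAT2 of the hepatocyte, read 7.92, 7.68 and 8.27 against 10.62, 10.92 and 10.33. All 3 phenobarbital arrays lay far below all 3 untreated arrays, and it fell by 2.67 ± 0.50, a 6.35-fold difference (limma adjusted p = 0.0412). Without control 6 it was -2.82 (adjusted p = 0.0921), and the call was lost in each refit without 1 control array. With only the 6 control arrays Slc22a7 was called (limma adjusted p = 0.00829). Slco1a4, an uptake carrier, read 10.23, 10.80 and 10.05 against 8.56, 8.41 and 9.08, a difference of 1.68 ± 0.46 (adjusted p = 0.135) that was called with array weights (adjusted p = 0.0319). Abcc4, an export pump, read 7.18, 7.88 and 9.04 against 7.34, 6.44 and 6.30. Its groups overlapped, with control 6 the highest, and the difference of 1.34 did not pass (adjusted p = 0.434).

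The receptor and its partners showed no called change: 0 of 35 passed, with a median of 0.09. Nr1i3, the gene of CAR itself, read 8.19, 8.69 and 8.68 against 9.45, 8.56 and 9.46. Untreated control 2 fell among the phenobarbital arrays, and the difference was -0.64 ± 0.29 (adjusted p = 0.346). Nr1i2, the gene of PXR, differed by -0.24 (adjusted p = 0.632). Ahr, the dioxin receptor, read 9.91, 10.36 and 10.07 against 9.23, 9.25 and 8.91, a difference of 0.99 ± 0.19 just outside the threshold (adjusted p = 0.0505; adjusted p = 0.0252 with array weights). Ppara, the fatty acid receptor, lay below in all 3 arrays, at -0.77 (adjusted p = 0.136).

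Of 18 growth and survival genes linked to CAR 0 passed. Their median was 0.33, and 0.07 without control 6. Gadd45b, a stress protein that binds CAR, read 8.33, 7.80 and 7.55 against 6.30, 6.85 and 7.27, a difference of 1.09 ± 0.32 (adjusted p = 0.154; called with array weights, adjusted p = 0.0344). Its other probe sets differed by 1.18 and -0.13 without a call (limma adjusted p = 0.0586 and 0.736). Prom1, a membrane protein of progenitor cells, read 8.27, 8.70 and 9.67 against 5.73, 5.82 and 6.16, a difference of 2.97 ± 0.75 (adjusted p = 0.112; called with array weights, adjusted p = 0.0344). For both the groups did not overlap. Gadd45a, its relative, was lower in all 3 phenobarbital arrays, at -1.02 (adjusted p = 0.112), and Myc, a growth-promoting transcription factor, overlapped at -0.97. Ccnd1, cyclin D1, read 8.32, 8.01 and 9.81 against 7.41, 7.30 and 8.95, with 1 high array in each group.

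Of 37 cell cycle genes 0 passed, and their median was 0.23 with all arrays and 0.09 without control 6. Mki67, the proliferation marker, read 5.69, 5.63 and 7.18 against 5.97, 4.90 and 5.23, so that controls 4 and 5 lay within the untreated range (adjusted p = 0.521). The mean level of the list was 5.51, 5.50 and 5.92 under phenobarbital and 5.59, 5.18 and 5.42 without it.

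In the Dlk1-Meg3 imprinted cluster, whose noncoding RNAs have been linked to phenobarbital and to pericentral hepatocytes, 0 of 7 genes passed, with a median of 0.53. Meg3 read 8.44, 10.31 and 11.44 against 8.17, 8.16 and 8.48, and Rian read 5.97, 8.24 and 9.70 against 6.42, 6.55 and 6.65. The 3 phenobarbital livers thus spread widely, with control 4 at or near the untreated level and control 6 the highest, while the untreated livers lay close together. The mean differences were 1.79 and 1.43 (adjusted p = 0.271 and 0.386), and 1.11 and 0.57 without control 6. Glul, the glutamine synthetase of the hepatocytes next to the central vein, followed the same order over the phenobarbital arrays, at 11.21, 12.79 and 13.54 against 12.42, 12.31 and 12.63.

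Zonation as a whole showed no called gene, 0 of 25 pericentral genes (median 0.06) and 0 of 20 periportal genes (median 0.07). Axin2, the feedback inhibitor of Wnt signalling, read 7.09, 7.07 and 7.76 against 6.46, 6.96 and 6.73. Its groups did not overlap, but the difference of 0.59 did not pass (adjusted p = 0.595). Ctnnb1, the gene of beta-catenin, stood at 12.38 ± 0.13 (SD, n = 3) and 12.29 ± 0.06 (SD, n = 3), a difference of 0.09 (limma adjusted p = 0.753). Its other 2 probe sets differed by -0.51 and -0.62 without a call (adjusted p = 0.43 and 0.61). Of 16 oncofetal and tumour markers 1 fell (0.0824% of all genes), Akr1c18, which also stands on this list. Afp, the fetal serum protein, read 5.95, 7.22 and 9.73 against 8.70, 8.39 and 9.15, and its difference was -1.11 with all arrays and -2.16 without control 6 (adjusted p = 0.506 with all arrays).

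No lipid gene of the lists passed. Of 19 cholesterol synthesis genes 0 passed, with a median of 0.56, and 8 had all phenobarbital arrays above (9.4% of all genes). Hmgcs1, which makes HMG-CoA, read 12.12, 12.30 and 13.26 against 11.28, 11.72 and 10.38 (adjusted p = 0.113), and Sqle, the squalene epoxidase, 10.24, 10.49 and 10.41 against 9.98, 9.85 and 8.07 (adjusted p = 0.229). Untreated control 3 was the low array in both: the mean of the list was 9.11 there, 10.31 and 10.34 in untreated controls 1 and 2, and 10.47 to 10.56 under phenobarbital. Of 23 genes of fatty acid oxidation and PPARA 0 passed, with a median of -0.27. For 7 of them all phenobarbital arrays lay below (9.44% of all genes). Acot1, an acyl-CoA thioesterase, read 5.81, 5.88 and 6.06 against 7.48, 7.42 and 7.78, a difference of -1.65 ± 0.42 (adjusted p = 0.112). Pdk4, which slows glucose oxidation, lay on the other side, at 1.47 ± 0.48 with no overlap (adjusted p = 0.207). In bile acid synthesis 0 of 18 passed, with a median of -0.25: Cyp7a1, its first enzyme, read 9.39, 10.47 and 11.00 against 12.51, 10.05 and 11.41.

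Sex-biased genes of the liver, which growth hormone controls, had medians on opposite sides of 0. Of 16 male-biased genes 0 passed, with a median of -0.46 and all phenobarbital arrays below for 7 and above for 0. Of 16 female-biased genes 0 passed, with a median of 0.38 and all phenobarbital arrays above for 5 and below for 0. Over all genes, 9.4% had all phenobarbital arrays above and 9.44% below. Hsd3b5, a male-specific steroid enzyme, read 11.50, 9.41 and 11.39 against 12.19, 13.06 and 12.06, a difference of -1.67 ± 1.04 (adjusted p = 0.503). The female-biased genes with the largest differences were Cyp2b13, Cyp2b9, Prom1, Sult3a1 and Sult1e1, each given above, and 2 of them are also phenobarbital-inducible P450s. Susd4, a male-biased membrane protein, was called lower with array weights (-1.13, adjusted p = 0.0428).

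Acute phase and serum proteins held no called gene. Of 24 genes 0 passed, with a median of -0.29, and -0.11 without control 6. All phenobarbital arrays lay below for 9 (9.44% of all genes) and above for 0 (9.4% of all genes). Saa1, serum amyloid A, read 9.76, 10.07 and 10.08 against 14.22, 12.56 and 13.49, and Saa2 read 7.92, 8.30 and 8.11 against 13.17, 10.17 and 11.64. The phenobarbital arrays of both lay close together and the untreated arrays spread widely, and the differences of -3.45 ± 0.97 and -3.55 ± 1.08 did not pass (adjusted p = 0.14 and 0.171). Lcn2, lipocalin 2, differed by -2.17 (adjusted p = 0.189). Alb, albumin, was level at 14.97, 14.97 and 14.86 against 14.93, 14.92 and 14.94.

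Interferon response genes had a median of 0.25, and 0.46 without control 6, with 0 of 23 called. Oas1a, an antiviral enzyme, read 10.44, 10.47 and 9.51 against 8.93, 8.65 and 9.18, a difference of 1.22 ± 0.32 (adjusted p = 0.129; adjusted p = 0.0251 with array weights). Untreated control 3 was the highest array of interferon gamma targets such as Igtp, at 12.55 against 10.60 to 11.07 in the other 5. Among 16 immediate early genes 0 passed, with a median of 0.22. Jund, a subunit of AP-1, was nearest, at 0.91 ± 0.19 (adjusted p = 0.0627). Of 25 chaperones and unfolded protein response genes 0 passed, with a median of 0.06. Chac1, which degrades glutathione, read 6.54, 6.56 and 6.31 against 8.32, 7.23 and 8.55, a difference of -1.57 ± 0.32 (adjusted p = 0.0511).

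**Figure D3:**
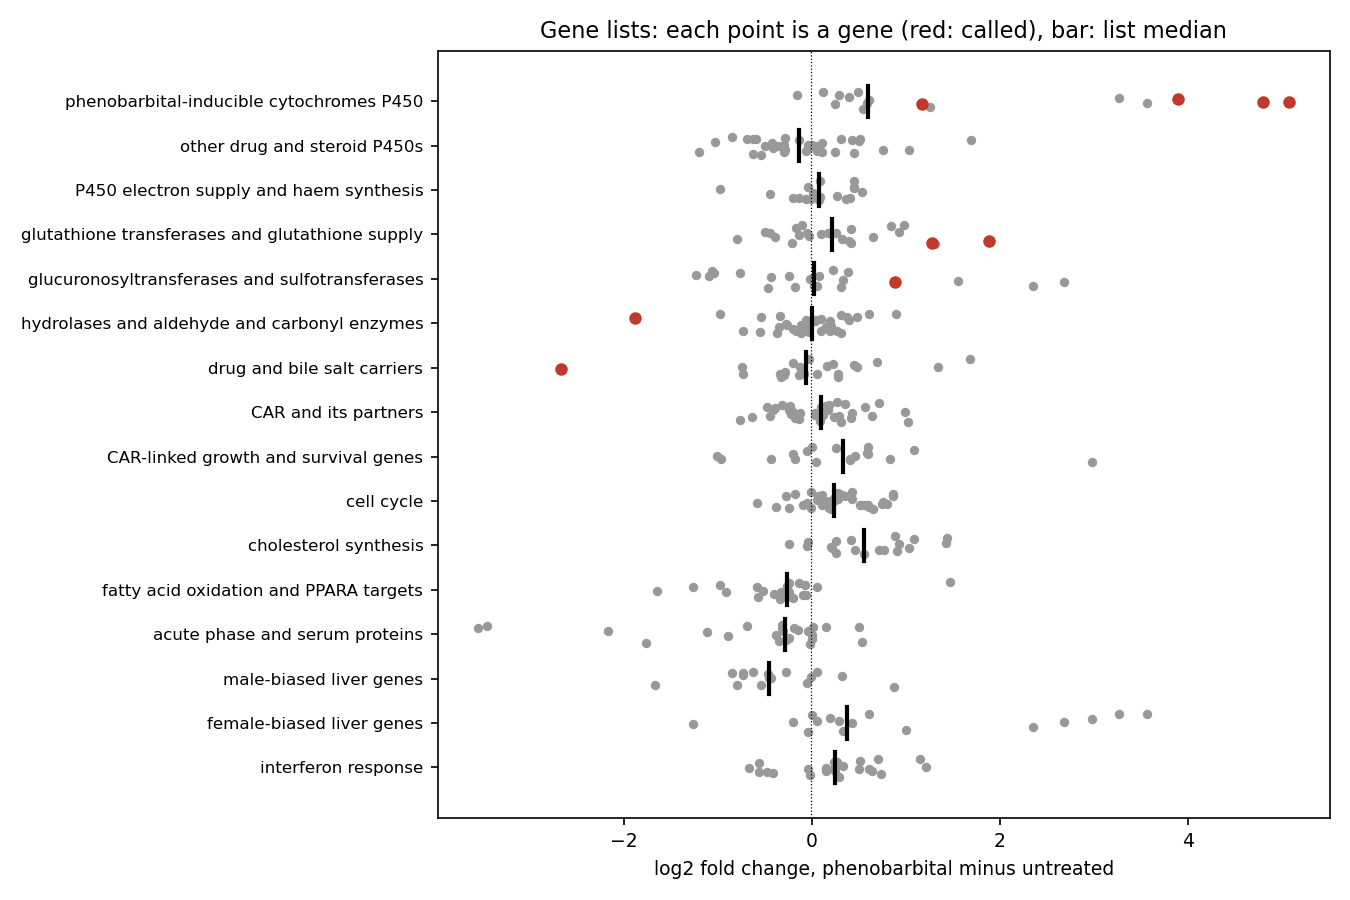
Log2 fold change of phenobarbital minus untreated liver (horizontal axis) for each measured gene of 16 gene lists, with called genes in red, the median of each list as a black bar and the median of all genes as a dotted line. The 16 lists were picked by hand from 43, of which 7 held a called gene. Of those shown 5 do: inducible P450s, glutathione transfer, glucuronidation, hydrolases and carriers. NRF2 targets and oncofetal and tumour markers, not shown, held 1 each, Ugdh and Akr1c18, which also stand on lists shown.

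Clock genes differed between single arrays. Of 18 genes 0 passed, with a median of -0.16. Arntl, the gene of BMAL1, read 8.13, 7.39 and 5.08 against 4.70, 7.44 and 5.00, and Dbp, which peaks in the opposite phase, read 7.83, 9.26 and 11.61 against 11.82, 10.52 and 11.98. Phenobarbital control 6 and untreated controls 1 and 3 were thus alike in both genes, and phenobarbital controls 4 and 5 and untreated control 2 lay on the other side. Alas1, Nr0b2 and Cyp7a1, which cycle over the day, also had untreated control 2 apart from untreated controls 1 and 3. Nr0b2 read 9.01, 8.82 and 8.99 against 7.21, 9.55 and 6.98. The part of these clock differences in the other results was not tested.

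In bulk liver, fewer cells of a type and less RNA per cell cannot be told apart. The tissue read as liver: 10 hepatocyte identity genes had a mean of 13.52 to 13.90 under phenobarbital and 13.71 to 13.83 without it, and 0 passed. Of 109 measured markers in 12 lists of other cell types 0 passed, with list medians between -0.24 and 0.12. Kupffer cell and macrophage markers had a mean of 7.57 to 7.97 against 7.34 to 8.02, endothelial markers 7.55 to 7.82 against 7.57 to 7.74, stellate cell and fibroblast markers 7.82 to 8.20 against 7.88 to 8.15, and T and NK cell markers 5.06 to 5.25 against 5.12 to 5.60. The ranges of the 2 groups overlapped in each of these 4 lists. Kidney tubule markers stayed at 3.96 to 4.27 against 4.10 to 4.27, near the low end of the scale. Krt8, a keratin of hepatocytes and mesothelium, read 12.17, 12.05 and 12.64 against 11.48, 11.67 and 11.53, a difference of 0.72 ± 0.16 (adjusted p = 0.0705; adjusted p = 0.0319 with array weights).

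Of the 39 called genes, 9 stood on a list and 30 on none, and those of the 30 that were not called again without control 6 are named here after their values were seen. Among the higher ones, Mtmr11, of the myotubularin family, read 6.82, 7.10 and 6.45 against 5.14, 4.97 and 5.10. The untreated arrays lay close together and far below, and it rose by 1.72 ± 0.24, or 3.29-fold (limma adjusted p = 0.0201; 1.88 and adjusted p = 0.025 without control 6). Its call was lost without phenobarbital control 4 or untreated control 3 (adjusted p up to 0.0632). The other probe set of Mtmr11 differed by 0.58 without a call (limma adjusted p = 0.382). With the mean of its probe sets the difference was 1.15, again without a call (limma adjusted p = 0.0643). Usp6nl, which switches off the small GTPase RAB5, read 8.74, 8.52 and 8.16 against 7.39, 7.62 and 6.98 and rose by 1.14 ± 0.20 (1.30 without control 6). Gtf2e1, a subunit of the general transcription factor TFIIE, read 8.72, 8.83 and 8.56 against 7.67, 7.99 and 7.59 and rose by 0.96 ± 0.14 (1.03 without control 6). In these 3 genes the groups did not overlap, and control 6 was the lowest of the phenobarbital arrays.

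Mmp13, the collagenase 3 of matrix breakdown, read 7.08, 5.86 and 6.18 against 4.09, 4.06 and 3.85 and rose by 2.37 ± 0.40 (limma adjusted p = 0.0315), with untreated values near the low end of the scale, where they include background. Irs1, the docking protein of the insulin receptor, read 10.24, 10.26 and 10.13 against 9.01, 9.53 and 8.91 and rose by 1.06 ± 0.18 (limma adjusted p = 0.0315). Neither depended on control 6 for its size (2.47 and 1.10 without it), though both calls were lost (adjusted p = 0.0864 and 0.0835). Other rises were largest in control 6. Prss8, the membrane protease prostasin, read 8.05, 7.94 and 9.89 against 7.18, 6.04 and 5.54, and its difference of 2.38 was 1.74 without that array. Dusp6, the phosphatase that switches off ERK, read 10.44, 10.37 and 11.69 against 8.98, 8.91 and 9.11, with 1.83 and 1.40. Neither was called without it (adjusted p = 0.0979 and 0.0921) or with only the 6 control arrays (adjusted p = 0.261 and 0.148). Trp53bp1, a DNA repair protein, Prpf4b, a splicing kinase, and Rbm14, an RNA-binding protein, had their highest value in control 6 as well, and rose by 1.22, 1.15 and 1.10. Without it they differed by 0.97, 0.97 and 0.90 and were not called (adjusted p = 0.0979, 0.0921 and 0.0921). Of the other probe sets of Trp53bp1 and Prpf4b, 3 and 2 had a difference slightly below 0, between -0.23 and 0.00. Clcn6, Gm19710, Usp37, Cdpf1, Arpp19, Trim25 and Pogk rose by 0.65 to 1.06. Without control 6 they were still higher, by at least 0.62, and none was called (adjusted p = 0.0864 to 0.117).

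Lower were, besides Akr1c18 and Slc22a7, 13 genes. Hhip, which binds and restrains hedgehog ligands, read 3.85, 3.34 and 3.97 against 5.04, 4.67 and 4.40. It fell by 0.98 ± 0.17 (limma adjusted p = 0.0315; -1.11 and adjusted p = 0.0362 without control 6), with values near the low end of the scale, and of its other 3 probe sets 1 differed by 0.12 in the other direction. Inhbe, the liver-made subunit of activin E, read 6.82, 7.42 and 7.55 against 8.32, 8.50 and 8.20 and fell by 1.08 ± 0.19 (limma adjusted p = 0.0315; -1.22 and adjusted p = 0.0413 without control 6). Neither gene had overlapping arrays.

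Obp2a, an odorant-binding lipocalin, had the largest fall, from 8.63, 8.81 and 5.92 to 4.80, 4.37 and 4.49. Untreated control 3 lay well below the other untreated arrays and still above every phenobarbital array. The difference was -3.23 ± 0.50 (limma adjusted p = 0.0315, and 0.0835 without control 6). The SD of Obp2a was 1.62 in untreated liver, and 0.15 and 0.39 in the Ctnnb1 and Ha-ras tumours, which share the spread of the fit. With only the 6 control arrays Obp2a was not called (limma adjusted p = 0.206). Aqp4, a water channel, read 6.61, 6.86 and 5.94 against 8.48, 8.60 and 8.17 and fell by 1.95 ± 0.33 (-1.68 and adjusted p = 0.0979 without control 6). Of its other probe sets 1 fell by 2.04, and the other differed by -0.51 without a call (adjusted p = 0.0886). Klf1, an erythroid transcription factor, and Kcnt2, a potassium channel, fell by 1.24 and 1.27 (adjusted p = 0.108 and 0.0921 without control 6). The erythroid marker list had a mean of 5.29 to 5.50 under phenobarbital and 5.41 to 5.52 without it, with 0 of 5 called. Clec3b, Rai2, Mterf2, Lce1i, Dnase1, 2810408I11Rik and 1810046K07Rik fell by 0.64 to 1.43. Without control 6 they differed by -1.21 to -0.73 and none was called (adjusted p = 0.0648 to 0.113).

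**Figure D4:**
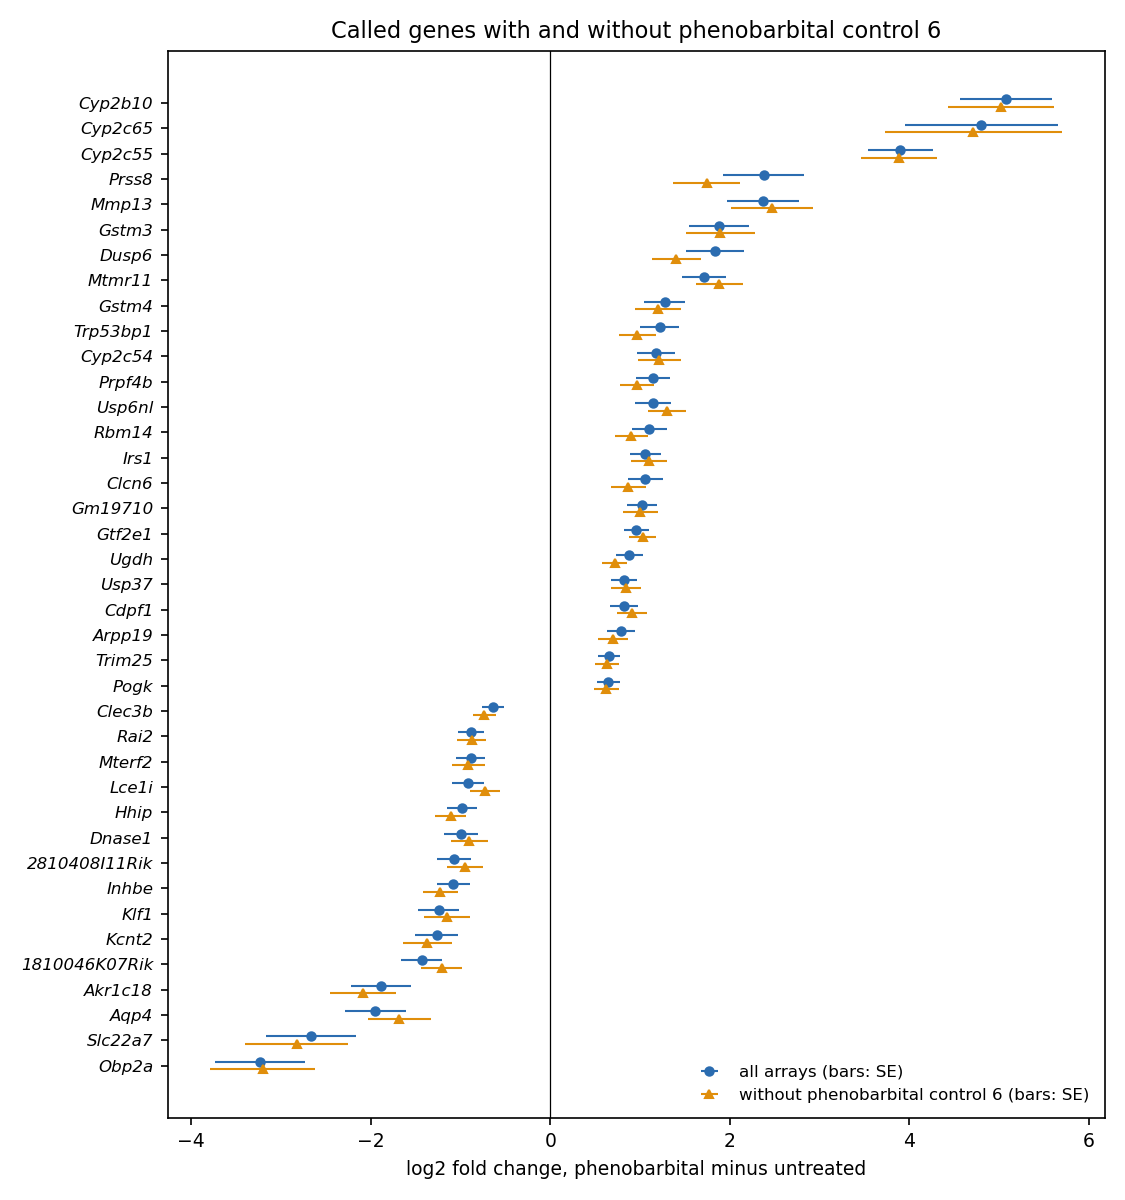
Log2 fold change of phenobarbital minus untreated liver (horizontal axis) of the 39 called genes, with all arrays (circles) and without phenobarbital control 6 (triangles); bars are standard errors of the fit. Every gene keeps its direction, and Prss8 and Dusp6 show the largest moves, from 2.38 to 1.74 and from 1.83 to 1.40.

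The tumours give a second contrast of livers with and without the drug, from arrays that are not in the control comparison: 7 Ctnnb1 tumours under phenobarbital against 3 Ha-ras tumours without it. Mutation and drug go together there, and the spread of the fit is shared, so the values are set side by side. Of the 24 genes that rose between controls, 23 were higher in the Ctnnb1 tumours, 15 of them called (7.21% of all genes were called higher), and 0 were called lower. Of the 15 that fell, 10 were lower in the Ctnnb1 tumours, 4 of them called (7.9% of all genes were called lower), and 0 were called higher. Over all 18193 genes, called or not, 9133 were higher in the Ctnnb1 tumours than in the Ha-ras tumours. The difference between the contrasts, tested as an interaction, passed for 17 of the 39 and for 5.43% of all genes; since the 39 were chosen for their control difference, which the interaction reuses, nothing is read from that count.

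The drug metabolism genes were among the shared ones. Cyp2b10 was at 12.82 ± 0.31 (SD, n = 7) in Ctnnb1 tumours and 7.38 ± 1.45 (SD, n = 3) in Ha-ras tumours, a difference of 5.44. Cyp2c55 differed by 5.31, Cyp2c65 by 3.94, Gstm3 by 3.20, Gstm4 by 2.78 and Ugdh by 2.13. Cyp2c54 differed by 4.02 between tumours against 1.17 between controls, and was at 9.70 in Ha-ras tumours and 12.55 in untreated liver. Akr1c18 differed by -6.45 against -1.88, with 12.54 in Ha-ras tumours and 7.49 in untreated liver. Aqp4 was lower in both contrasts, by 3.02 and 1.95 on the log2 scale.

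The other 9 that rose and 11 that fell were not called between tumours. Of these, Dusp6 among the genes that rose, and Clec3b, Hhip, Dnase1, Inhbe and Klf1 among those that fell, had the opposite sign there, at -0.66 for Dusp6 and 0.05 to 0.30 for the others. Mtmr11 stood at 8.65 in Ctnnb1 and 8.60 in Ha-ras tumours, above both control groups, and differed by 0.05 between them. Dusp6 was at 10.91 and 11.57, a difference of -0.66 (limma adjusted p = 0.127). Slc22a7 and Obp2a differed by -0.66 and -0.18 between tumours, both below their untreated control level. Of the P450s that did not pass, Cyp2b9 and Cyp2b13 differed by -1.44 and -0.36 between tumours, and Cyp2c37 by 3.82.

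**Figure D5:**
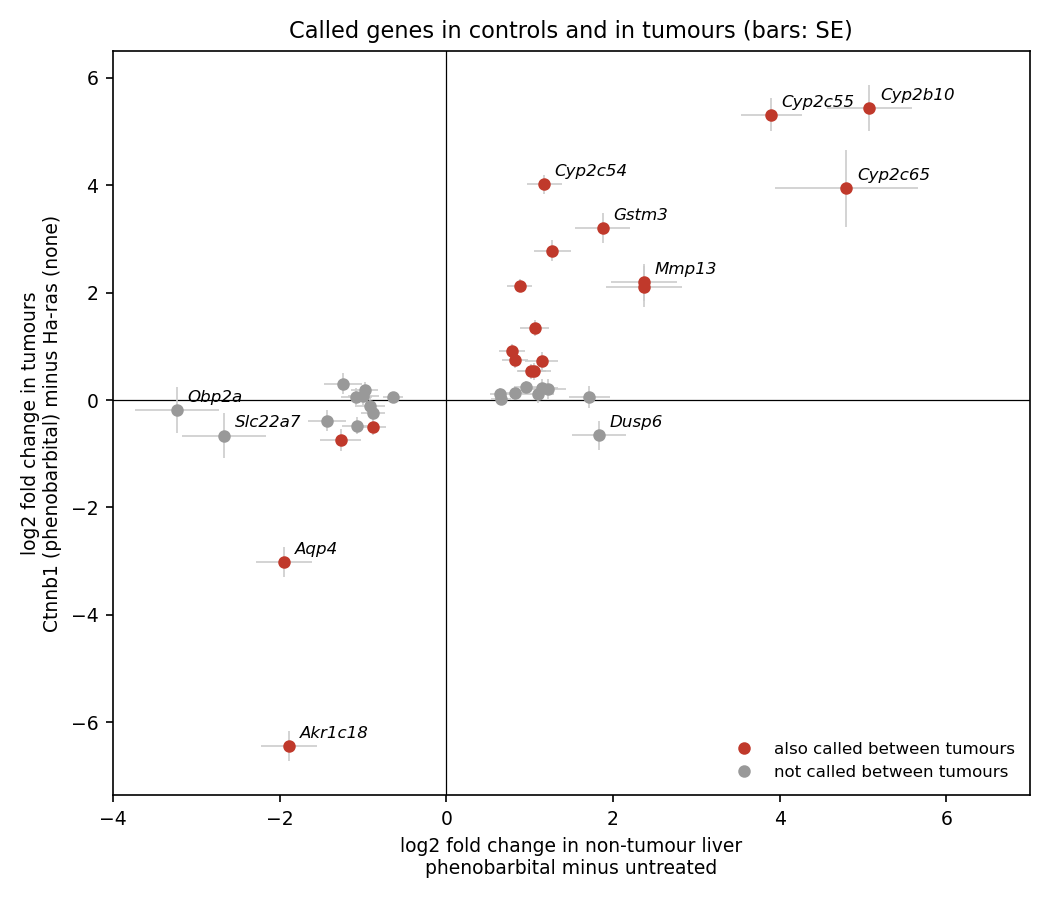
Log2 fold change of Ctnnb1 (phenobarbital) minus Ha-ras (none) tumours (vertical axis) against that of phenobarbital minus untreated control liver (horizontal axis) for the 39 called genes; bars are standard errors, and genes also called between tumours are red. The P450s and glutathione transferases lie at the upper right, Akr1c18 and Aqp4 at the lower left, and Dusp6 is the 1 gene that rose between controls and lies below 0 between tumours.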

How the data were processed

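RNA of 16 mouse liver samples was read on Affymetrix arrays, 1 array per sample. The deposited values are log2 intensities per probe set, which the authors made with RMA in R 2.14.1, per the submitters' processing notes. Of 45101 probe sets, 64 were array controls, 34945 carried 1 gene symbol, 932 several and 9160 none. Symbols came from the platform annotation and were checked by Entrez identifier (34741 matched, 0 renamed). Per gene the probe set of highest mean was kept. No detection calls were used, and the number of arrays limits the precision.

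limma 3.58.1 in R 4.3.3, with statmod 1.5.0 and the data.table package, version 1.17.8, fitted 1 mean per group over all 16 arrays (lmFit, eBayes), leaving 12 residual degrees of freedom. The fit was tested on simulated data. The members and the 43 gene lists (31 pathway, 12 cell type) were chosen with earlier results of these data known. Genes named by rule are list members, a fixed set (Cyp2b10, Nr1i3, Nr1i2, Por, Alas1, Gadd45b, Abcc4, Ctnnb1, Glul, Axin2, Afp, Mki67, Meg3) and at most 20 called genes per direction with non-overlapping arrays that were still called without phenobarbital control 6 and are no unnamed gene models, which gave 7. The other called genes on no list, and 2 called only without phenobarbital control 6, were named after their values were seen. Alternatives changed the arrays used, the replicate block, the probe set, the scaling, the test, array weights, a Gapdh covariate, and left out each control array. Promoters came from RefSeq (GRCm38.p6).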

Additional observations from a re-analysis of the deposited data

Results flagged for a closer look

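The difference between controls and the difference between tumours were set against each other as an interaction in the same fit (controls minus tumours, limma adjusted p over all genes), and 17 of the 39 called genes passed, against 5.43% of all genes. The genes were chosen for a large difference between controls, and the interaction reuses those arrays, so a larger difference between controls is favoured by the choice. Larger between controls were Dusp6 (2.49, adjusted p = 0.00201), Mtmr11 (1.66, adjusted p = 0.00525), Rbm14 (0.99, adjusted p = 0.0281), Prpf4b (0.92, adjusted p = 0.0425), Gtf2e1 (0.72, adjusted p = 0.0308), Usp37 (0.70, adjusted p = 0.0414) and Trim25 (0.64, adjusted p = 0.0277). Cyp2c54 (-2.85, adjusted p = 1.52e-05), Gstm4 (-1.51, adjusted p = 0.00611) and Ugdh (-1.25, adjusted p = 0.00124) rose in both contrasts, and more between tumours. Among genes lower between controls, Obp2a (-3.05, adjusted p = 0.0115), Klf1 (-1.54, adjusted p = 0.0056), Hhip (-1.17, adjusted p = 0.00393), Inhbe (-1.14, adjusted p = 0.0112), Dnase1 (-1.06, adjusted p = 0.0158) and Clec3b (-0.68, adjusted p = 0.0191) were lower there than between tumours. Akr1c18 (4.57, adjusted p = 1.38e-05) was lower in both contrasts, and more so between tumours. In an alternative chosen after seeing the data, without phenobarbital control 6, all 17 kept their sign and 13 passed. Prpf4b (0.73, adjusted p = 0.0996), Rbm14 (0.79, adjusted p = 0.0653), Trim25 (0.61, adjusted p = 0.0542) and Usp37 (0.72, adjusted p = 0.0586) no longer did, and Dusp6 was at 2.06 (adjusted p = 0.00243).

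In 3 of the 39 called genes 1 Ctnnb1 tumour stood away from the other 6, and about 1 group in 20 does so by chance. Gm19710 was at 4.77 in tumour 5 against 4.10 to 4.32 in the others, Gtf2e1 at 8.58 in tumour 7 against 8.02 to 8.26, and Kcnt2 at 3.55 in tumour 2 against 2.61 to 2.97. Control groups of 3 arrays were not examined this way.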

How the results depend on the processing

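All 39 called genes kept their direction in every alternative fit in which they were tested, other probe sets apart, and Cyp2b10 and Cyp2c55 were called in each of their 19 (4.72 to 5.47 and 3.63 to 4.28). The count of called genes (39, 24 higher, 15 lower, 26 at least 2-fold) was less stable. With only the 6 control arrays 19 genes were called, 12 higher and 7 lower, and 7 of the 19 were among the 39. The other 32 of the 39 kept their direction there without a call. A 2-fold minimum in the test gave 2, 2, 0 and 2 at least 2-fold. Adding the Gapdh gap to the fit gave 4, 4, 0 and 4. The count was 242, 136, 106 and 74 with array weights, and 63, 40, 23 and 48 over every probe set. The mean of all probe sets gave 45 called, 22 higher and 23 lower, and repeated quantile normalization 52, 28 and 24. Leaving out 1 control array gave 3 to 68 called, 2 to 46 higher, 0 to 22 lower and 3 to 35 at least 2-fold; where 2 arrays remain in a group, the spread comes from all groups. The cause of these moves was not tested. An alternative chosen after seeing the data, the control arrays alone without phenobarbital control 6, called 30 genes, 10 of them among the 39.

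Of 33 other probe sets of called genes 5 were called, 22 kept the direction without a call and 6 turned it: Hhip (0.12), Prpf4b (-0.230 and -0.0663) and Trp53bp1 (-0.0542, -0.0689 and -0.00104). No paired analysis was possible because the 2 control groups share no replicate number. Control and tumour arrays of 1 treatment do, but their deviations correlated at -0.12 to 0.40, so the numbers were not taken as pairs. With the replicate number over all groups as a fixed block 6 genes were called (4 higher, 2 lower, 6 at least 2-fold), 3 of them among the 39. In that fit the 2 control groups are linked through the Ctnnb1 tumours alone. With the number within each treatment as a random block, a different grouping, 41 were called (correlation 0.05), all 39 among them.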

Other observations

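Of 43 gene lists 36 held no called gene, among them 5 not described so far. Glycolysis and glucose uptake (16 genes) had a median of 0.29, fatty acid and triglyceride synthesis (29) 0.17, gluconeogenesis and glucose export (15) 0.09, thyroid hormone handling (10) 0.01 and the urea cycle and amino acid breakdown (27) -0.02. G6pc, which releases glucose from hepatocytes, read 12.52, 11.87 and 10.30 under phenobarbital and 10.65, 10.35 and 9.71 without it, a difference of 1.33 with all arrays and 1.96 without phenobarbital control 6 (limma adjusted p = 0.365 with all arrays). Dio1, the deiodinase that activates thyroid hormone, was at 9.26 in untreated control 3 and between 3.99 and 4.98 in the other 5 controls. With array weights, 28 of the 684 measured genes on a list were called, the 9 of the unweighted fit among them. Over all genes 1.33% were called in that fit, which called more genes than any other alternative.

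Without phenobarbital control 6, 2 genes were called that had not been called before: Ifi27l2b, which differed by 1.17, and Lacc1, which differed by 0.79. Both are named after their values were seen.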
